A study of Mus musculus with 463 samples.

Results

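The genes described here are 43 genes of the dividing cell, 20 that are switched on for DNA replication in S phase and 23 that are switched on for G2 and mitosis. They were listed by symbol, and all 43 were found in both the bulk and the single-cell count tables of a study of the embryonic mouse pancreas, out of 40824 genes. The S genes are Mcm2, Mcm3, Mcm4, Mcm5, Mcm6, Mcm7, Pcna, Cdc45, Cdc6, Cdt1, Gins2, Rrm1, Rrm2, Tyms, Uhrf1, Ung, Slbp, Ccne1, Ccne2 and E2f1. The G2M genes are Mki67, Top2a, Ccna2, Ccnb1, Ccnb2, Cdk1, Cdc20, Aurka, Aurkb, Plk1, Bub1, Bub1b, Ube2c, Nusap1, Tpx2, Cenpe, Cenpf, Kif11, Kif20a, Kif23, Birc5, Hmmr and Depdc1a.

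In a cycling cell, D-type cyclins and their kinases release E2F transcription factors from the retinoblastoma family of pocket proteins, and E2F factors then switch on cyclin E and the replication genes. Later in the cycle a Myb and FoxM1 complex, bound at elements near the start sites, switches on cyclin B, its kinase Cdk1 and the genes of the mitotic spindle, while CDK inhibitors such as p21 (Cdkn1a), p27 (Cdkn1b) and p57 (Cdkn1c) hold the kinases back. Early pancreatic progenitors divide, whereas cells that express the transcription factor Neurogenin3 at a high level are known to leave the cycle as they become endocrine, and young beta cells can divide again.

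The bulk libraries came from sorted cells of the ventral and the dorsal side of the pancreas, 2 libraries per side and sort. At E10.5 the cells were Pdx1-GFP+ from embryos with a Pdx1-GFP transgene. At E14.5 they were Ngn3-GFP-high or Ngn3-GFP-low from embryos with an Ngn3-GFP transgene, and at E17.5 they were Ins1-RFP+, from embryos whose transgene reports insulin expression. The 447 single cells were prepared by Smart-seq2, a plate-based method that reads whole transcripts. They comprised Pdx1-GFP+ cells of the ventral and dorsal Pdx1-expressing regions at E9.5 and E10.5, Pdx1-GFP-low and Pdx1-GFP-high cells of both sides at E10.5, ventral Pdx1-GFP-low cells sorted further as Liv2+ or Liv2- (Liv2 is a surface marker of hepatoblasts), Liv2+ cells of the E10.5 liver bud, and 4 tdTomato+ liver cells from an E15.5 embryo line carrying Pdx1-Cre and ROSA26-tdTomato. Every sort but the liver bud relies on a transgene reporter, so a group holds the cells in which that promoter drove its reporter. The labels give no strain, and do not say whether libraries or numbered sets of cells are separate embryos, litters or sorts, so p-values here measure only the spread between these samples.

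Depth ran between 8779418 and 24551520 gene-assigned reads in bulk libraries and between 201191 and 1738015 in cells, where the median was 1064163. Of the 44 ventral E9.5 cells, 25 carry a growth protocol written for human stem cells. Their titles name mouse stages, so they stay in, and all of them belong to 1 of the 2 ventral E9.5 sets. Levels are given as CPM, the count of a gene scaled to a total of reads. For a single cell this is the cell's total of reads on genes. For bulk libraries and for cells summed by set it is the total over the genes that passed edgeR's filter on low counts, adjusted by TMM scaling. CPM over cells and CPM over sets are therefore not on the same scale. Changes are log2 fold changes from edgeR's quasi-likelihood test with their standard errors (SE), and a gene was called at a Benjamini-Hochberg adjusted p under 0.05, over 17690 genes in bulk and 17433 in cells summed by set.

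The promoters of the members carry the letters through which the S and the G2M programmes are known to be read. RefSeq promoters of build GRCm38.p6, from 250 bases before to 50 after the start, were available for 36 of the 43 members and were searched on both strands for an E2F element (TTTCCCGC, TTTCGCGC, TTTGCCGC or TTTGGCGC), for the cell cycle homology region, CHR (TTTGAA), and for the CCAAT box (CCAAT). The 36 members had 38 promoters, and a member was counted with a match in any of its promoters, while the share over all genes counts promoters. An E2F element was present in 7 of 17 S genes (41.2%), in 1 of 19 G2M genes (5.26%) and in 2.26% of 32851 promoters. The CHR was present in 2 of 17 S genes (11.8%), in 14 of 19 G2M genes (73.7%) and in 17.9% of all promoters. A CCAAT box was present in 11 of 17 S genes (64.7%), in 17 of 19 G2M genes (89.5%) and in 37.4% of all promoters. Such a match describes the letters of this window and is not a shown binding site. The last 160 bases before the RefSeq start are given for 6 members that moved widely in the comparisons below, written 5′ to 3′ on the strand of the gene. For Cdk1, Cdc20, Ube2c and Depdc1a the last bases shown, with the CHR nearest the start, also occur in a GENCODE transcript. Matches next to the RefSeq start of these genes can therefore lie inside a transcript. Capitals mark E2F elements in Mcm5 and Mcm6 (helicase subunits), and in the G2M genes Cdk1, Cdc20, Ube2c and Depdc1a they mark CHR, CCAAT and E2F matches on either strand, so that a CHR may read TTCAAA and a CCAAT box ATTGG. The run of capitals TTTCGCGCCAAA in Mcm5 and TTTGGCGCGAAA in Mcm6 each hold 2 overlapping matches on opposite strands.
Mcm5 (chr8:75109349-75109508, plus strand): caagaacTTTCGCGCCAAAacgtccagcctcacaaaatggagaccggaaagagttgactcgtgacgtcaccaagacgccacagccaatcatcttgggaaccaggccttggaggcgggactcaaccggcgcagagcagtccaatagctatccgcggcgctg
Mcm6 (chr1:128359706-128359865, minus strand): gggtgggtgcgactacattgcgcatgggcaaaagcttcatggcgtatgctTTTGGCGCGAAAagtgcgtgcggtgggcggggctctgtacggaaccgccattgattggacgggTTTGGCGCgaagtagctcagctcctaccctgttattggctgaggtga
Cdk1 (chr10:69352913-69353072, minus strand): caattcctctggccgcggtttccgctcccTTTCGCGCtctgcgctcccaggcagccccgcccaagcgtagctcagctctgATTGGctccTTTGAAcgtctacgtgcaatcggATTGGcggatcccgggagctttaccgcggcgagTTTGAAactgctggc
Cdc20 (chr4:118437344-118437503, minus strand): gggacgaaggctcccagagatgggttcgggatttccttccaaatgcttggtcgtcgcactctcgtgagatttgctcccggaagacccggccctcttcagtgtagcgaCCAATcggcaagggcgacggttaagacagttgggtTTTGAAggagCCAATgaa
Ube2c (chr2:164769769-164769928, plus strand): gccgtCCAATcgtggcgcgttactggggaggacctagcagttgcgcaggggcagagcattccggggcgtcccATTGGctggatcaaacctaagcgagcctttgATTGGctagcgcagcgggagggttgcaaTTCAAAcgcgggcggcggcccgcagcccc
Depdc1a (chr3:159495273-159495432, plus strand): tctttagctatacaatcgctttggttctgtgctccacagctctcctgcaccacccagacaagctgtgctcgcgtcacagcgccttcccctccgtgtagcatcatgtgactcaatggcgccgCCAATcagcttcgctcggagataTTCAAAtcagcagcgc
Cdk1, the kinase that drives entry into mitosis, is the 1 G2M promoter with an E2F element, and it also holds 2 CHR and 2 CCAAT matches in the stretch shown.

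Across the bulk libraries the summed levels of both lists were high in E10.5 Pdx1+ and E14.5 Ngn3-low cells, lowest in Ngn3-high cells and higher again in E17.5 Ins1+ cells, although single S genes such as Mcm2 and E2f1 followed another order. The summed level of the 20 S genes was 3572 and 3326 CPM in ventral and 3077 and 2938 CPM in dorsal E10.5 cells. At E14.5 it was 686 and 755 CPM in ventral and 677 and 691 CPM in dorsal Ngn3-high cells, against 2902 and 2901 CPM in ventral and 3003 and 2983 CPM in dorsal Ngn3-low cells. At E17.5 it was 839 and 846 CPM in ventral and 826 and 843 CPM in dorsal Ins1+ cells, just above every Ngn3-high library. The summed level of the 23 G2M genes was 3496 and 3470 CPM in ventral and 2832 and 2597 CPM in dorsal E10.5 cells. In Ngn3-high cells it was 312 and 328 CPM (ventral) and 363 and 382 CPM (dorsal), against 3997 and 4318 CPM (ventral) and 4413 and 4378 CPM (dorsal) in Ngn3-low cells. In E17.5 Ins1+ cells it was 853 and 818 CPM (ventral) and 897 and 902 CPM (dorsal). The G2M sum was thus highest in the Ngn3-low libraries and the S sum in the E10.5 ventral libraries, and no library of another sort overlapped the Ngn3-high range in either sum. In bulk RNA, fewer dividing cells and less of these transcripts per cell cannot be told apart.

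**Figure D1:**
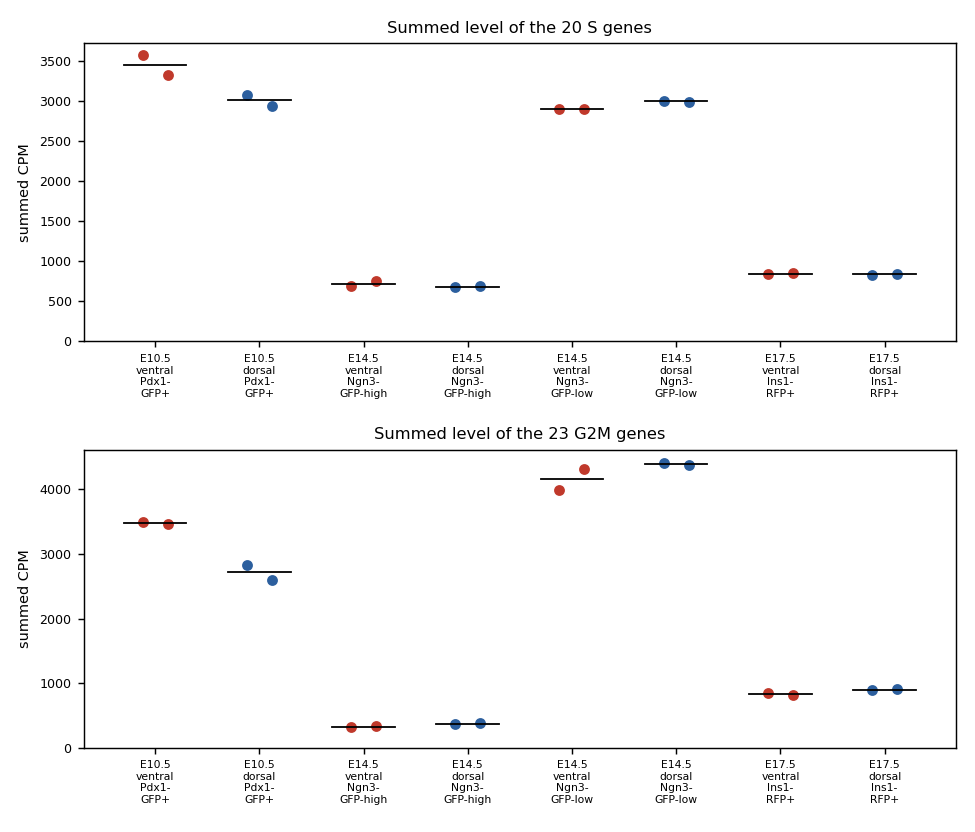
Summed CPM of the 20 S genes (top) and the 23 G2M genes (bottom) in each of the 16 bulk libraries, by stage, side and sort. Points are libraries (red ventral, blue dorsal) and black lines are means of 2. The Ngn3-high libraries sit lowest in both panels, and the 2 sides are separate in both panels at E10.5.

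Per kilobase of gene length, as mean RPKM over 2 libraries, Top2a (topoisomerase II alpha, which untangles sister chromosomes) was the highest of the 43 in dorsal Ngn3-low cells at 155 and Cdc6 (a licensing factor of replication origins) the lowest at 10.7. In dorsal Ngn3-high cells Slbp, which binds the stem-loop of histone mRNAs, was highest at 35.6 and Cdc6 again lowest at 0.846.

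Ngn3-high cells held far less of nearly every member than Ngn3-low cells on both sides. Of the 23 G2M genes, all 23 fell on the ventral and all 23 on the dorsal side. Of the 20 S genes, 19 fell on each side. Over all genes tested, 32.5% were called lower on the ventral and 32.3% on the dorsal side, and 29.5% and 29.3% were called higher. The median log2 fold change was -3.69 (ventral) and -3.59 (dorsal) over the G2M genes and -2.25 and -2.45 over the S genes.

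The G2M genes moved within a narrow band. Mki67, which codes for the Ki-67 protein on mitotic chromosomes, had 42.2 and 41.7 CPM in ventral Ngn3-high against 592 and 686 CPM in ventral Ngn3-low libraries, a log2 change of -3.93 (SE 0.11, adjusted p = 1.01e-12). On the dorsal side Mki67 had 49.5 and 49.9 against 692 and 672 CPM, a log2 change of -3.78 (SE 0.11, adjusted p = 1.36e-12). All 4 Ngn3-high values lie far below the lowest Ngn3-low value. Top2a had 40.7 and 51.4 CPM in ventral Ngn3-high and 712 and 790.3 CPM in ventral Ngn3-low libraries, and 58.6 and 64.0 against 829.8 and 787 CPM on the dorsal side. Aurkb, the kinase of the chromosomal passenger complex, showed the largest ventral fall, with 4.61 and 5.30 against 105 and 96.5 CPM and a log2 change of -4.33 (SE 0.13, adjusted p = 1.89e-12). Cdk1 showed the largest dorsal fall among the G2M genes, with 8.21 and 10.46 CPM in Ngn3-high against 143 and 139 CPM in Ngn3-low libraries (-3.95, SE 0.13, adjusted p = 5.18e-12). Aurka, the kinase of the spindle poles, fell least of the 23 on both sides, by 3.05 (ventral) and 2.89 (dorsal) on the log2 scale. Ccnb1 (cyclin B) had 12.1 and 11.1 against 106 and 114 CPM on the ventral side and 10.6 and 11.9 against 115 and 116 CPM on the dorsal side. Cdc20, which activates the anaphase-promoting complex, had 13.8 and 16.4 against 132 and 120.4 CPM and 13.6 and 16.1 against 126 and 141 CPM. Plk1, a mitotic kinase, had 8.40 and 6.62 against 108 and 100.2 CPM and 7.64 and 7.89 against 106 and 112 CPM. In each of these genes both Ngn3-high libraries lay below both Ngn3-low libraries on each side.

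The S genes spread more widely. Uhrf1, which brings the maintenance DNA methyltransferase to newly replicated DNA, fell most, with 14.502 and 15.54 CPM in ventral Ngn3-high against 257 and 249.7 CPM in ventral Ngn3-low libraries (-4.07, SE 0.10, adjusted p = 3.33e-13) and 18.2 and 18.3 against 265 and 259 CPM on the dorsal side (-3.84, SE 0.09, adjusted p = 3.93e-13). The helicase subunits fell less. Mcm6 had 66.0 and 76.6 against 374 and 387 CPM (ventral) and 69.4 and 72.1 against 410.1 and 389.8 CPM (dorsal), with log2 fold changes of -2.41 and -2.50, and Mcm5 had 41.1 and 43.7 against 246 and 211 CPM (ventral) and 36.6 and 40.3 against 237 and 223 CPM (dorsal). Mcm2 kept the most of the 6, with 111 and 115 against 227 and 231 CPM on the ventral side (-1.02, SE 0.07, adjusted p = 1.02e-08). Pcna, the sliding clamp of the replication fork, had 26.5 and 28.8 against 116 and 114 CPM (ventral) and 28.2 and 26.1 against 124 and 123 CPM (dorsal). In each of these genes the Ngn3-high libraries lay below the Ngn3-low libraries. Of the cyclin E pair, Ccne1 had 8.33 and 10.2 against 38.7 and 34.3 CPM on the ventral side and 9.36 and 8.62 against 37.7 and 36.9 CPM on the dorsal side. Ccne2 had 10.8 and 11.1 against 31.7 and 38.6 CPM on the ventral side and 9.15 and 7.80 against 34.7 and 34.0 CPM on the dorsal side. Slbp fell least of the called S genes, with 68.9 and 70.6 against 116 and 113 CPM (-0.71, SE 0.08, adjusted p = 2.8e-06) and 63.7 and 71.9 against 121 and 120.3 CPM (-0.83, SE 0.08, adjusted p = 5.7e-07). E2f1, the transcription factor itself, stood apart from the other 42. It had 34.1 and 42.5 CPM in ventral Ngn3-high against 32.8 and 30.8 CPM in ventral Ngn3-low libraries, a called rise of 0.27 (SE 0.11, adjusted p = 0.0389). That call was lost without ventral Ngn3-high replicate 2 (adjusted p = 0.483), without ventral Ngn3-low replicate 1 (adjusted p = 0.0593) or replicate 2 (adjusted p = 0.172), without the filter on low counts (adjusted p = 0.124) and by DESeq2 (adjusted p = 0.0608). On the dorsal side E2f1 had 29.1 and 31.3 against 32.0 and 31.9 CPM (-0.09, SE 0.11, adjusted p = 0.517), and the libraries of the 2 sorts lay close together.

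Other genes of the cycle were read from lists of the same pathway. All 6 G1 cyclins and kinases fell on each side. Cyclin D1 (Ccnd1) had 38.2 and 33.4 CPM in ventral Ngn3-high and 327 and 321 CPM in ventral Ngn3-low libraries (-3.18, SE 0.08, adjusted p = 5.53e-13), and the dorsal change was -3.34 (SE 0.08, adjusted p = 3.93e-13). Of 20 other replication genes 19 fell on the ventral and 20 on the dorsal side, and of 27 other mitosis genes 26 fell and 1 rose on each side. The CDK inhibitors went both ways: of the 7, 4 rose on each side while 1 fell on the ventral and 2 fell on the dorsal side. Cdkn1a had 501 and 499 against 208 and 201 CPM (ventral) and 435 and 397 against 179.5 and 198 CPM (dorsal), with log2 fold changes of 1.29 (SE 0.11, adjusted p = 1.64e-07) and 1.14 (SE 0.11, adjusted p = 6.31e-07). Cdkn1b had 126 and 132 against 60.6 and 58.2 CPM (ventral) and 128 and 136 against 71.5 and 67.8 CPM (dorsal), and changed by 1.12 and 0.92. Cdkn2b rose by 4.67 and 3.05, Cdkn2d by 0.96 and 1.07, and Cdkn1c fell on the dorsal side (-1.01, SE 0.21, adjusted p = 0.000747). Cdkn2c, which inhibits the partners of D cyclins, fell with the members, by 2.79 (ventral, SE 0.31, adjusted p = 2.04e-06) and 3.22 (dorsal, SE 0.32, adjusted p = 6.67e-07) on the log2 scale. Of 11 genes of the E2F and pocket protein families 9 fell and 2 rose on each side, with the repressor E2f8 at -3.97 and -4.09 and the pocket protein Rb1 at 1.62 and 1.64. Of 5 genes linked to cell cycle exit 1 rose and 2 fell on each side, the riser being Btg2, an antiproliferative factor (2.46 and 2.09).

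The gate effect did not pass the test for a difference between the sides in any of the 43 genes (0.0113% of all genes did, and DESeq2 also called 0 of 43). Markers of other cells moved with the gate. The 4 acinar markers that passed the filter summed to 25.1 to 38.3 CPM in ventral and 105 to 110 CPM in dorsal Ngn3-high, against 2570 to 2985 and 3257 to 3680 CPM in the Ngn3-low libraries. The 6 mesenchyme markers summed to 301 to 306 and 234 to 268 CPM, against 780 to 1625 and 837 to 1058 CPM. The 6 endocrine progenitor markers summed to 13562 to 14428 and 10055 to 10746 CPM, against 188 to 218 and 166 to 263 CPM. Their part in the result was not tested.

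**Figure D2:**
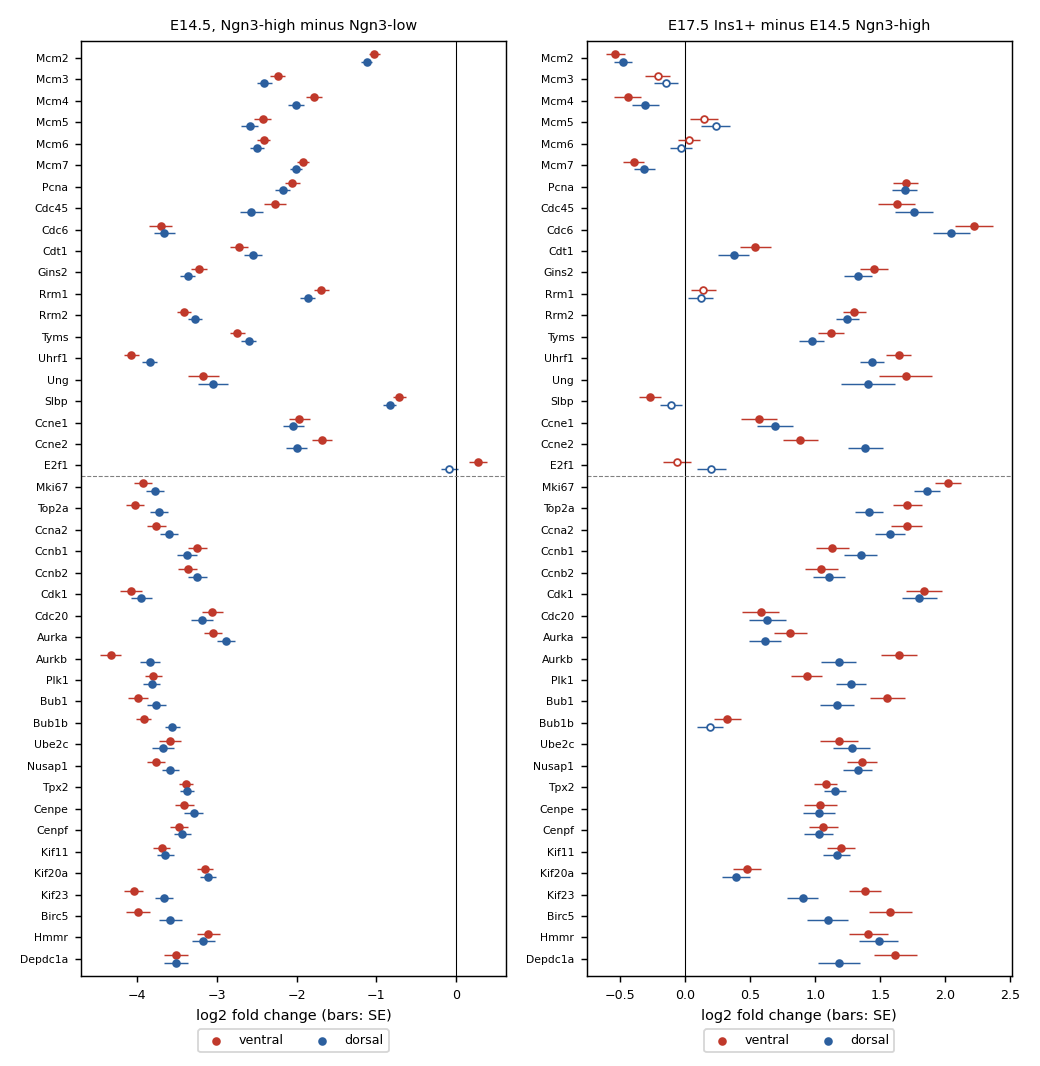
Log2 fold change of each member, S genes above the dashed line and G2M genes below it, for Ngn3-high minus Ngn3-low cells at E14.5 (left) and for E17.5 Ins1+ minus E14.5 Ngn3-high cells (right). Bars are SE, red is ventral and blue dorsal, and filled points have an adjusted p under 0.05. All members but E2f1 lie left of 0 in the left panel, and in the right panel the G2M genes lie right of 0 while Mcm2, Mcm4 and Mcm7 lie left of it.

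E17.5 Ins1+ cells, whose beta cell markers summed to 79554 to 95407 CPM (ventral) and 75892 to 89057 CPM (dorsal), held more G2M transcripts than E14.5 Ngn3-high cells while no subunit of the Mcm2 to Mcm7 helicase ring was called higher. All 23 G2M genes rose on the ventral and 22 of 23 on the dorsal side, where 26.9% and 24.8% of all genes were called higher. Of the S genes, 11 of 20 rose on each side, while 4 fell on the ventral and 3 on the dorsal side, where 24.5% and 23.1% of all genes were called lower. The medians were 1.20 (ventral) and 1.17 (dorsal) over the G2M genes and 0.55 and 0.53 over the S genes. Stage, sort and transgene differ together in this comparison and cannot be told apart.

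Mki67 had the largest rise of the G2M genes, with 173 and 167 CPM in ventral E17.5 against 42.2 and 41.7 CPM in ventral Ngn3-high libraries (2.02, SE 0.10, adjusted p = 2.02e-09) and 190.0 and 170.5 against 49.5 and 49.9 CPM on the dorsal side (1.86, SE 0.10, adjusted p = 4.97e-09). Cdk1 had 29.1 and 28.0 against 8.18 and 7.83 CPM on the ventral and 29.3 and 34.5 against 8.21 and 10.46 CPM on the dorsal side, changes of 1.84 and 1.80. Both genes were still well below their Ngn3-low levels in every E17.5 library. The smallest G2M change was that of Bub1b, a kinase-like protein of the spindle checkpoint, with 16.5 and 16.3 against 12.0 and 14.1 CPM (ventral, 0.32, SE 0.10, adjusted p = 0.0176) and 20.5 and 18.2 against 16.7 and 17.4 CPM (dorsal, 0.19, SE 0.10, adjusted p = 0.129). The ventral call of Bub1b was lost without ventral Ngn3-high replicate 1 (adjusted p = 0.204) and without E17.5 ventral replicate 1 (adjusted p = 0.117) or replicate 2 (adjusted p = 0.0568). Top2a had 158 and 144 CPM in ventral and 163 and 163 CPM in dorsal E17.5 libraries, above the Ngn3-high values given above. Ccnb1 had 27.0 and 23.6 and, on the dorsal side, 26.2 and 30.9 CPM. Cdc20 had 21.9 and 23.7 (ventral) and 22.4 and 22.9 CPM (dorsal), and Plk1 had 14.2 and 14.4 (ventral) and 18.6 and 18.9 CPM (dorsal). Each of these 4 genes rose on both sides, and every E17.5 library lay below every Ngn3-low library in all 4.

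Among the S genes, Cdc6 rose most, with 16.1 and 19.7 against 3.72 and 3.91 CPM (ventral, 2.22, SE 0.15, adjusted p = 2.26e-08) and 15.2 and 18.6 against 4.09 and 4.04 CPM (dorsal, 2.05, SE 0.14, adjusted p = 5.33e-08). Pcna had 84.0 and 95.6 against 26.5 and 28.8 CPM (ventral) and 83.6 and 92.5 against 28.2 and 26.1 CPM (dorsal), and rose by 1.69 and 1.69. Cdc45, which with the GINS subunit Gins2 completes the active helicase, rose by 1.63 and 1.76, and Gins2 by 1.45 and 1.33. The Mcm2 to Mcm7 ring did not follow. Mcm2 fell, with 76.9 and 78.6 CPM in ventral E17.5 against 111 and 115 CPM in ventral Ngn3-high libraries (-0.53, SE 0.07, adjusted p = 2.57e-05) and 77.0 and 74.9 against 103 and 109 CPM on the dorsal side (-0.48, SE 0.07, adjusted p = 8.67e-05). Mcm4 and Mcm7 also fell on both sides, Mcm4 by 0.44 (ventral) and 0.30 (dorsal) and Mcm7 by 0.40 and 0.31 on the log2 scale. The dorsal call of Mcm4 was lost whichever of the 4 dorsal libraries was left out, with adjusted p-values from edgeR of 0.0562 to 0.136. Mcm3, Mcm5 and Mcm6 did not pass the test on either side. Mcm6 had 72.7 and 73.1 against 66.0 and 76.6 CPM (ventral, 0.03, SE 0.08, adjusted p = 0.803), values that overlapped. Mcm5 had 48.2 and 45.7 against 41.1 and 43.7 CPM (ventral, 0.15, SE 0.11, adjusted p = 0.276) and 47.8 and 42.1 against 36.6 and 40.3 CPM (dorsal, 0.23, SE 0.11, adjusted p = 0.0921). E2f1 had 34.9 and 38.8 CPM (ventral) and 34.7 and 34.5 CPM (dorsal) at E17.5, with adjusted p-values from edgeR of 0.668 and 0.148.

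The D cyclins and the inhibitors differed between these stages too. Cyclin D2 (Ccnd2), known as the main D cyclin of dividing beta cells, had 788 and 875 CPM in ventral E17.5 against 69.5 and 73.7 CPM in ventral Ngn3-high libraries (3.54, SE 0.09, adjusted p = 5.93e-12) and 867 and 871 against 80.0 and 79.0 CPM on the dorsal side (3.45, SE 0.09, adjusted p = 7.72e-12). All 4 E17.5 values of Ccnd2 lie above every other bulk library. Ccnd1 rose less, by 0.78 and 0.79, to 62.5 and 59.9 CPM (ventral) and 68.0 and 69.1 CPM (dorsal). Cdkn1a had 35.8 and 44.7 against 501 and 499 CPM (ventral, -3.64, SE 0.13, adjusted p = 5.83e-11) and 33.6 and 41.6 against 435 and 397 CPM (dorsal, -3.47, SE 0.13, adjusted p = 1.06e-10), while Cdkn1b, at 132 and 148 CPM (ventral) and 131 and 149 CPM (dorsal), did not pass the test on either side. Of the 27 other mitosis genes 24 rose and 1 fell on the ventral side, and 25 rose and 2 fell on the dorsal side. The E17.5 libraries also held acinar markers at a sum of 3791 to 3918 CPM (ventral) and 3996 to 4305 CPM (dorsal) and mesenchyme markers at 913 to 2208 and 647 to 1562 CPM, above the Ngn3-high values given above, and their part in the result was not tested.

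**Figure D3:**
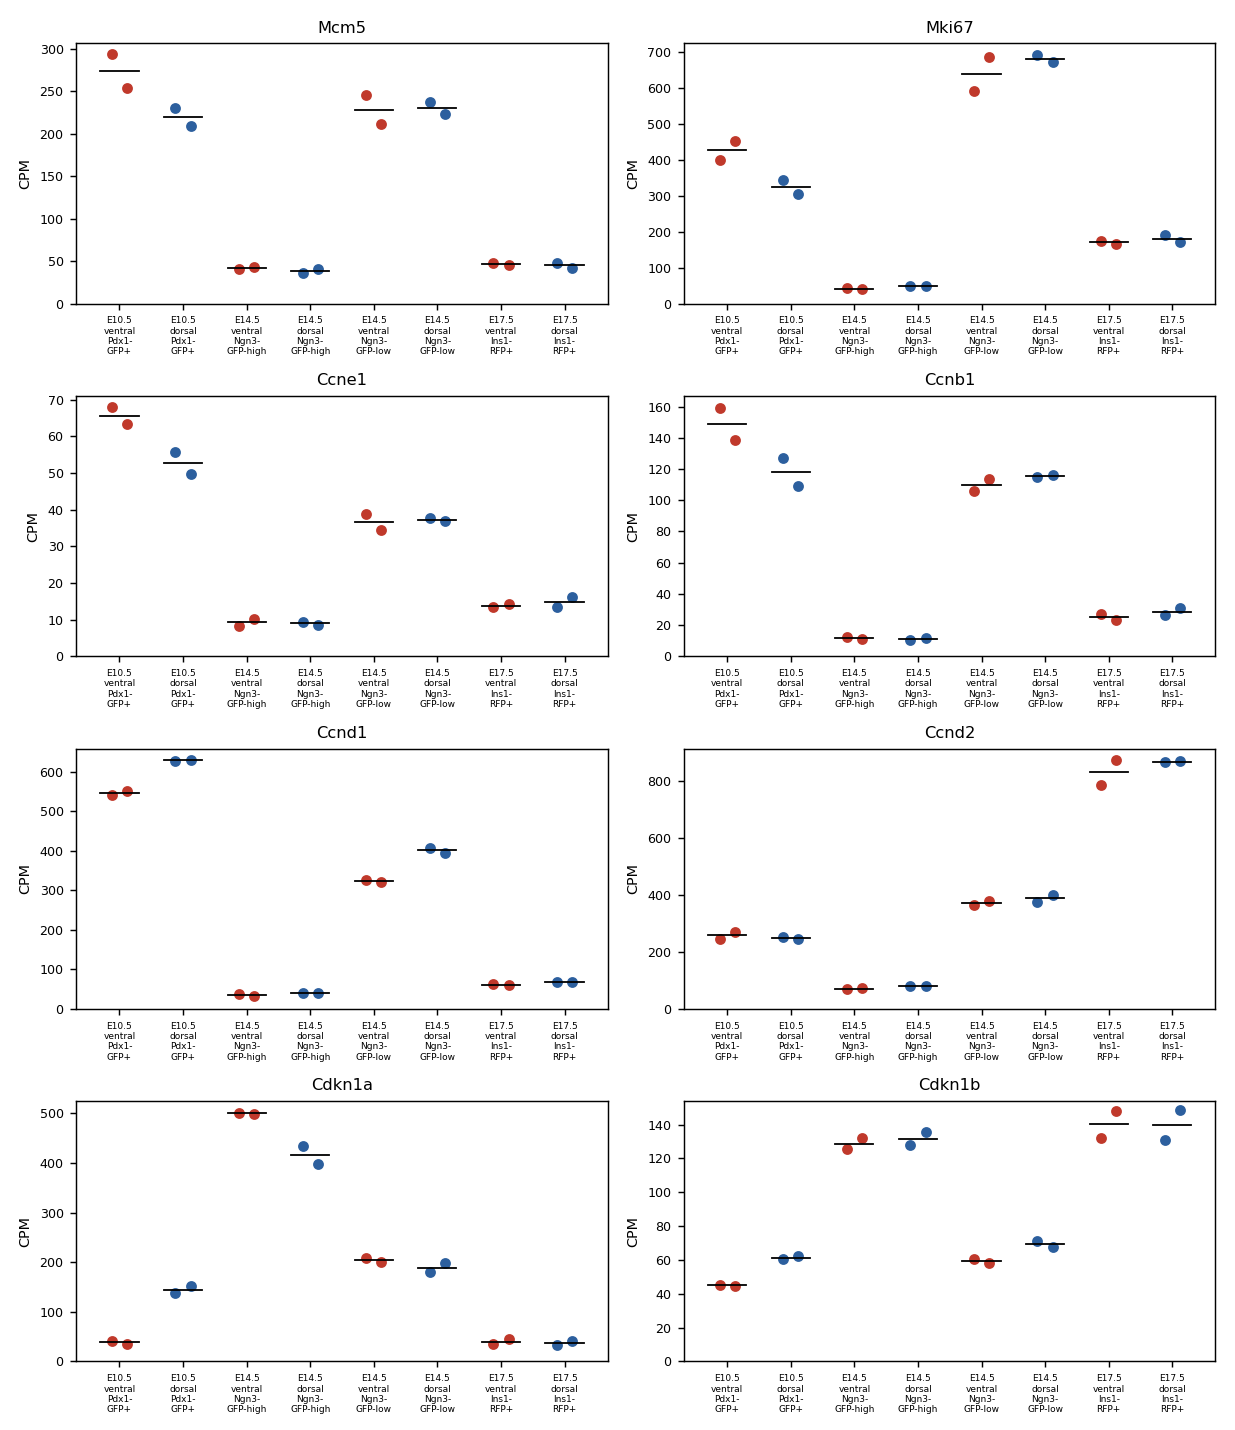
CPM of 4 members (Mcm5, Mki67, Ccne1 and Ccnb1), 2 D cyclins and 2 CDK inhibitors in each bulk library, by stage, side and sort (red ventral, blue dorsal, black line the mean of 2). Ccnd2 is highest at E17.5, Cdkn1a is highest in Ngn3-high cells, and the 4 members are lowest in Ngn3-high cells.

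E14.5 Ngn3-low cells were also set against E10.5 Pdx1+ cells. On the dorsal side 19 of 23 G2M genes were higher at E14.5 and none was called lower (27.8% and 32.2% of all genes were called higher and lower), with a median of 0.67. On the ventral side 8 rose and 1 fell (27.3% and 28.2% of all genes), with a median of 0.14. Of the 20 S genes, 4 rose and 4 fell on the dorsal side, and 1 rose and 11 fell on the ventral side, with medians of 0.03 and -0.26. Mki67 rose on both sides, to the Ngn3-low values given above, against 399 and 454 CPM in ventral E10.5 (0.58, SE 0.10, adjusted p = 0.000133) and 344 and 306 CPM in dorsal E10.5 libraries (1.07, SE 0.10, adjusted p = 3.57e-07). Ccnb1 fell on the ventral side (-0.44, SE 0.10, adjusted p = 0.00247) and had a dorsal change of -0.03 (SE 0.10, adjusted p = 0.824). Gins2 moved most of all S genes, with 44.6 and 41.2 CPM in ventral Ngn3-low against 114 and 117 CPM in ventral E10.5 libraries (-1.43, SE 0.08, adjusted p = 2.41e-09) and 44.7 and 46.2 against 149 and 155 CPM on the dorsal side (-1.74, SE 0.08, adjusted p = 2.48e-10). Pcna fell on both sides, by 0.80 (ventral) and 0.52 (dorsal), and Ccne1 by 0.85 and 0.50 on the log2 scale. Mcm6 had a ventral change of 0.09 (SE 0.08, adjusted p = 0.334) and rose on the dorsal side by 0.52 (SE 0.08, adjusted p = 6.64e-05). Stage, sort and transgene differ together here too and cannot be told apart. The acinar markers summed to 2570 to 2985 CPM in ventral and 3257 to 3680 CPM in dorsal Ngn3-low, against 56 to 62.9 and 181 to 188 CPM in E10.5 libraries. The mesenchyme markers summed to 780 to 1625 and 837 to 1058 CPM, against 706 to 1053 and 293 to 296 CPM, and the 5 endothelial markers to 193 to 634 and 289 to 574 CPM, against 16.5 to 41.8 and 4.42 to 9 CPM. The alpha cell markers summed to 177 to 178 and 195 to 329 CPM, against 199 to 244 and 2927 to 2931 CPM. Their part in the result was not tested.

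The ventral and dorsal sides differed at E10.5 and not, by the test, at E14.5 or E17.5. At E10.5, 19 of 23 G2M genes and 7 of 20 S genes were higher in ventral Pdx1+ cells and 1 S gene was lower (10.6% and 14.7% of all genes were called higher and lower). The median log2 fold change was 0.36 over the G2M genes, 0.22 over the S genes and -0.03 over all genes. In Ngn3-high cells edgeR called 0 of 43 between the sides (0.486% of all genes), with 13 at an unadjusted p under 0.05 and 1, Top2a, called by DESeq2 (adjusted p = 0.0378). In Ngn3-low cells it called 0 of 43 (0.017% of all genes), with 0 at an unadjusted p under 0.05 and 0 called by DESeq2. In E17.5 cells it called 0 of 43 (0.0283% of all genes), with 2 (Plk1 and Bub1b) at an unadjusted p under 0.05 and 0 called by DESeq2. Top2a and these 2 genes are named here for their values. In Ngn3-high cells the medians were -0.19 over the G2M genes and 0.05 over the S genes, and the largest changes were those of Aurkb (-0.51, SE 0.15, adjusted p = 0.289) and Ccne2 (0.36, SE 0.14, adjusted p = 0.665), at the levels given above. In Ngn3-low cells the largest were those of Cdc45 (-0.18) and of Hmmr, a spindle protein (-0.16), and in E17.5 cells those of Plk1 (-0.39) and of Ung, a uracil-DNA glycosylase (0.20).

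Kif23, a kinesin of the central spindle and cytokinesis, differed most at E10.5, with 131 and 144 CPM in ventral against 82.8 and 86.2 CPM in dorsal libraries (0.70, SE 0.10, adjusted p = 9.64e-05). Nusap1, a protein of spindle microtubules, had 100.0 and 105 against 70.2 and 64.5 CPM (0.61, SE 0.09, adjusted p = 0.000202). Ccnb2 had 73.6 and 64.3 against 50.6 and 42.0 CPM (0.57, SE 0.11, adjusted p = 0.00109). In all 3 genes both ventral libraries lay above both dorsal libraries. Top2a, the G2M gene with the highest mean CPM, had 531 and 543 CPM in ventral and 443 and 413 CPM in dorsal libraries (0.33, SE 0.10, adjusted p = 0.0304), and Mki67, at the E10.5 levels given above, changed by 0.39 (SE 0.10, adjusted p = 0.00777). Cdk1 had 124 and 103 against 94.9 and 82.5 CPM (0.36, SE 0.11, adjusted p = 0.0299), Ccnb1 159 and 139 against 127 and 109 CPM (0.34, SE 0.10, adjusted p = 0.0297) and Plk1 125 and 115 against 91.3 and 92.9 CPM (0.38, SE 0.09, adjusted p = 0.00514). Cdc20 had the smallest G2M change and was not called, with 159 and 126 against 134 and 119.8 CPM (0.17, SE 0.12, adjusted p = 0.356), and its libraries overlapped. Ccna2, Ube2c and Birc5 were not called either.

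Among the S genes the largest rise was that of Ccne2, with 40.9 and 35.1 against 29.6 and 28.1 CPM (0.40, SE 0.12, adjusted p = 0.0308), and Ccne1 had 68.0 and 63.3 against 55.6 and 49.7 CPM without passing the test (0.32, SE 0.12, adjusted p = 0.0652). Mcm6, the highest in mean CPM, had 364 and 349 against 289.8 and 267 CPM (0.36, SE 0.08, adjusted p = 0.00451), and Mcm5 had 294 and 255 against 230.3 and 209 CPM (0.32, SE 0.10, adjusted p = 0.0296). Rrm1 and Rrm2, the subunits of ribonucleotide reductase, rose by 0.36 and 0.34. Pcna, with 216 and 187 against 179.7 and 175 CPM, was not called (0.18, SE 0.09, adjusted p = 0.158). Gins2 was the only S gene called lower in ventral cells, with 114 and 117 against 149 and 155 CPM (-0.39, SE 0.08, adjusted p = 0.00143). E2f1 had 34.7 and 36.2 against 34.7 and 35.5 CPM (0.01, SE 0.11, adjusted p = 0.965) and Slbp 100.2 and 97.3 against 104 and 99.0 CPM (-0.04, SE 0.08, adjusted p = 0.819), with overlapping libraries in both.

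The inhibitors were divided between the sides. Cdkn1a had 41.8 and 36.1 CPM in ventral against 138 and 151 CPM in dorsal E10.5 libraries (-1.90, SE 0.12, adjusted p = 4.75e-08), and Cdkn1b was also lower in ventral cells (-0.44, SE 0.09, adjusted p = 0.00191). Cdkn1c was higher, with 398 and 373 against 191 and 173 CPM (1.08, SE 0.21, adjusted p = 0.00152), as were Cdkn2b and Cdkn2c by 1.87 and 1.70. Of the G1 cyclins and kinases, Cdk6 and Cdk2 rose by 1.58 (SE 0.28, adjusted p = 0.000669) and 0.44 (SE 0.09, adjusted p = 0.00208) and the other 4 were not called. Of 27 other mitosis genes 10 rose and 1 fell, and of 20 other replication genes 4 rose. Of 11 E2F and pocket protein genes Rbl1 rose (0.33) and Rb1 fell (-0.44), and of the 5 exit genes 1 rose and 2 fell. The 5 alpha cell markers summed to 199 to 244 CPM in ventral against 2927 to 2931 CPM in dorsal libraries, and the 6 endocrine progenitor markers to 39.5 to 46.8 against 724 to 824 CPM. The 6 hepatoblast markers summed to 1735 to 2146 against 288 to 349 CPM, the 5 cardiac muscle markers to 1040 to 1888 against 3.92 to 20.5 CPM, and the 6 mesenchyme markers to 706 to 1053 against 293 to 296 CPM, with Lum at 0 in dorsal libraries. Their part in the result was not tested.

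The E10.5 calls rest on few libraries. Of the 27 members called, 8 remained without dorsal replicate 2 and 16 without ventral replicate 1, and 8 were called whichever library was left out: Aurka, Ccnb2, Cenpe, Gins2, Hmmr, Kif23, Nusap1 and Plk1. The side effect at E10.5 was larger than that in Ngn3-low cells at E14.5 for 10 G2M and 3 S genes (Mcm6, Rrm1 and Rrm2), where 4.71% of all genes were called in that direction and 7.6% in the other, with differences of 0.73 for Kif23, 0.68 for Nusap1 and 0.48 for Mki67 (SE 0.13, adjusted p = 0.0297). Of these 13 calls, 2 (Kif23 and Nusap1) held in every fit with a library left out. The number called was 2 without E10.5 dorsal replicate 2, 8 without E10.5 ventral replicate 1, 5 without Ngn3-low dorsal replicate 1, 8 without Ngn3-low dorsal replicate 2 and 5 without Ngn3-low ventral replicate 1.

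**Figure D4:**
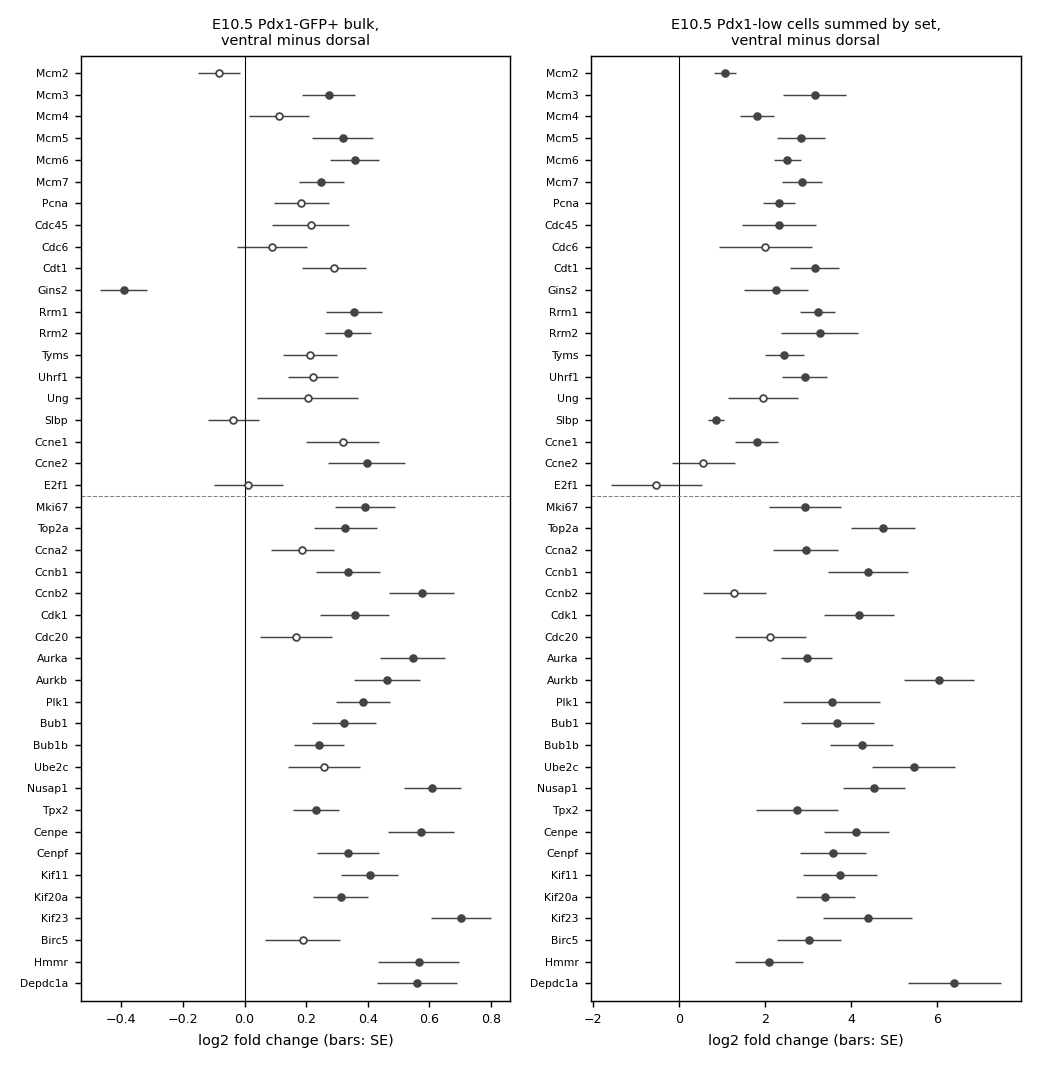
Log2 fold change of each member, ventral minus dorsal, in E10.5 Pdx1-GFP+ bulk libraries (left) and in E10.5 Pdx1-low cells summed by set (right), with S genes above the dashed line and G2M genes below. Bars are SE and filled points have an adjusted p under 0.05, and the axes differ in range. Gins2 is the only filled point left of 0, and the changes between Pdx1-low cells are several times larger than those between bulk libraries.

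In single cells a member was counted as on at 10 CPM or more, a cell as S-high with at least 10 of the 20 S genes on, and as G2M-high with at least 12 of the 23 G2M genes on. These cuts describe RNA content and are not a measured phase. Of all 447 cells 299 were high in both, 115 in S genes alone, 2 in G2M genes alone and 31 in neither. Of the 23 G2M genes 263 cells had 18 or more on, 86 had 6 to 17 and 98 had 5 or fewer, and 16 lay within 1 gene of the G2M cut. In every ventral sort and in the liver bud nearly every cell was high in at least 1 list: 44 of 44 E9.5 ventral, 58 of 59 E10.5 ventral Pdx1+, 39 of 39 ventral Pdx1-low, 39 of 39 ventral Pdx1-high, 54 of 54 Liv2+, 59 of 59 Liv2- and 23 of 23 liver bud cells. On the dorsal side the counts were 30 of 31 at E9.5, 24 of 27 in E10.5 Pdx1+ cells, 16 of 40 in Pdx1-low cells and 28 of 28 in Pdx1-high cells.

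The dorsal Pdx1-low cells had the lowest share of the sorts of E9.5 and E10.5. Of these cells 40% (16 of 40, exact 95% binomial interval 24.9% to 56.7%) were high in at least 1 list and 15% (6 of 40, 5.71% to 29.8%) were G2M-high. The G2M-high share was 71.8% (55.1% to 85%) in ventral Pdx1-low, 69.2% (52.4% to 83%) in ventral Pdx1-high and 67.9% (47.6% to 84.1%) in dorsal Pdx1-high cells. It was 79.5% (64.7% to 90.2%) in ventral and 64.5% (45.4% to 80.8%) in dorsal E9.5 cells. The ventral E9.5 sets were far apart, at 96.4% in set 1, which holds the cells with the human stem cell protocol, and 50% in set 2. In E10.5 Pdx1+ cells it was 69.5% (56.1% to 80.8%) on the ventral and 55.6% (35.3% to 74.5%) on the dorsal side, where set 3, with 16.7% G2M-high and 50% high in at least 1 list, lay within the range of the dorsal Pdx1-low sets. By G2M-high share the dorsal Pdx1-low sets ran from 0% to 75%, the highest being set 4. Sets of every other E9.5 and E10.5 sort but Liv2+ and liver bud lay within that wide range. Among them were set 4 of the ventral (18.2%) and of the dorsal (25%) Pdx1-high sort and set 2 of the ventral Pdx1-low sort (50%). The G2M-high share was 83.3% (70.7% to 92.1%) in Liv2+ and 67.8% (54.4% to 79.4%) in Liv2- cells, and every liver bud cell was G2M-high (85.2% to 100%). Intervals cover counting error only. The median cell of the dorsal Pdx1-low sort had 9 S genes and 3 G2M genes on, and 21 of its 40 cells lay within 1 gene of the S cut. Their median depth was 1200823 reads, against 1092348 in ventral Pdx1-low and 980160 in dorsal Pdx1-high cells, and with every cell thinned to 200000 reads the share high in at least 1 list was 47.5%. Their alpha cell markers summed to 26415 to 52556 CPM per set, against 752 to 958 CPM in ventral Pdx1-low and 37 to 487 CPM in dorsal Pdx1-high sets, and their endocrine progenitor markers to 1224 to 2305 CPM in the same sets, against 2.16 to 4.81 and at most 248 CPM. The part of these cell types in the difference was not tested.

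**Figure D5:**
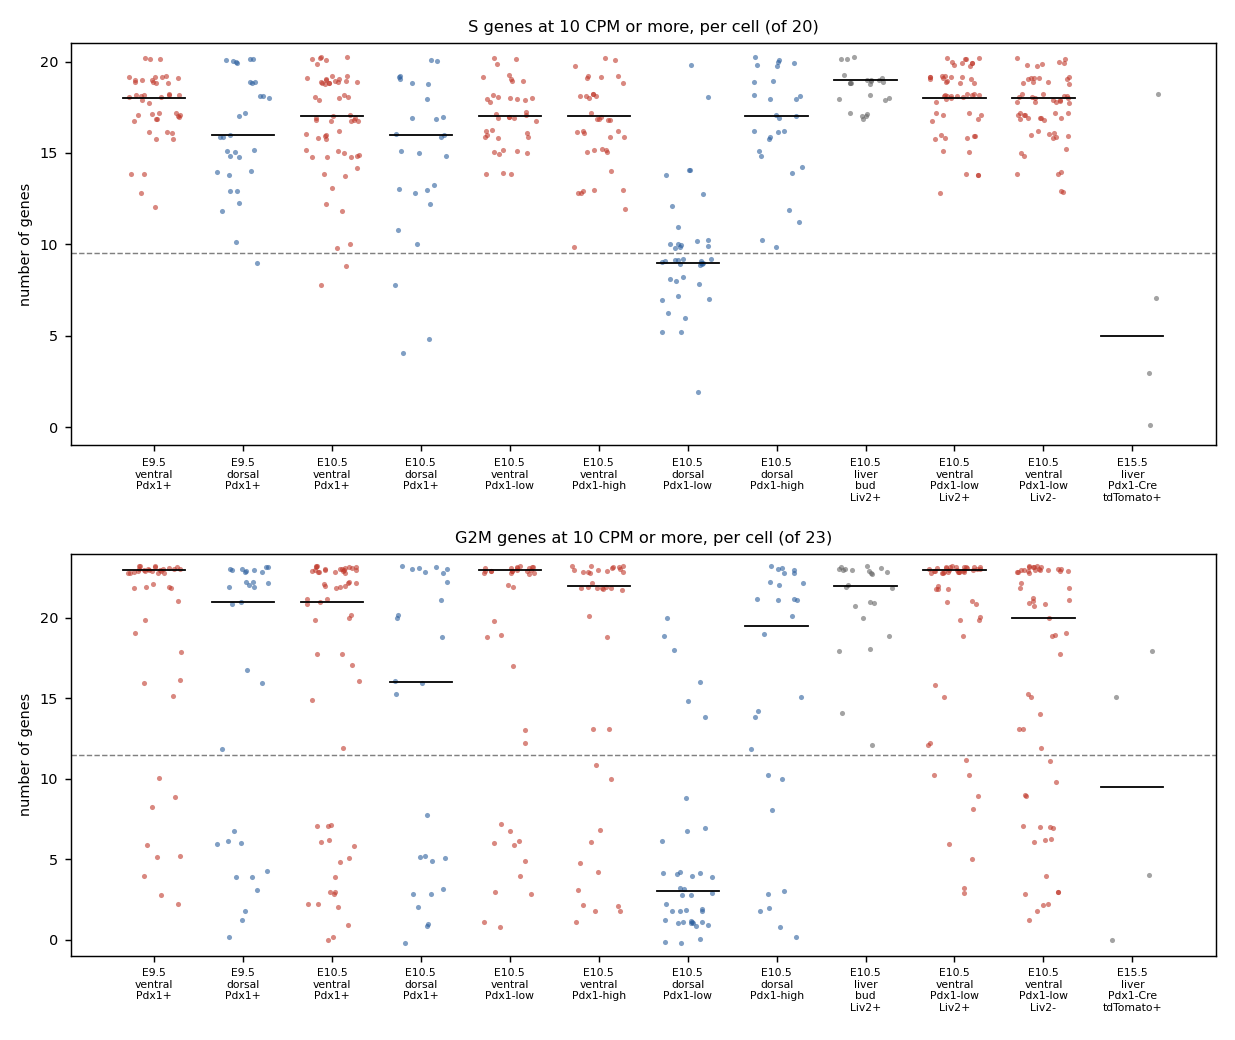
Number of S genes (top, of 20) and G2M genes (bottom, of 23) at 10 CPM or more in each of the 447 cells, by stage, side and sort. Points are cells (red ventral, blue dorsal, grey liver), black lines are medians and dashed lines are the cuts for a high cell. The dorsal Pdx1-low cells have a median of 9 S and 3 G2M genes on. In the other pancreatic sorts the G2M genes form a high and a low cloud. Every liver bud cell lies above the G2M cut line, and the E15.5 liver cells are too few to form clouds.

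Compared over sets of 3 or more cells, the mean share high in at least 1 list was 100% in 5 ventral and 45.2% in 6 dorsal Pdx1-low sets, a difference of 54.8 points (exact two-sided permutation test, p = 0.00649, adjusted p = 0.0487 over 30 tests, smallest possible p 0.00216). The same share was 45.2% in 6 dorsal Pdx1-low and 100% in 5 dorsal Pdx1-high sets, a difference of -54.8 points (exact permutation test, adjusted p = 0.0487), and the G2M-high share was 18.5% against 65%, a difference of -46.5 points that did not pass (exact permutation test, p = 0.0584, adjusted p = 0.292). No cell of these sorts was high in G2M genes alone, so the S-high share was identical in both comparisons. Each result thus entered the 30 tests both as S-high and as high in at least 1 list. The adjusted p of 0.0487 from the exact permutation test depends on that double entry. The mean G2M-high share was 72.1% ± 14.8 in ventral against 18.5% ± 29.4 in dorsal Pdx1-low sets (SD), a difference of 53.5 points that did not pass the adjusted threshold (exact permutation test, p = 0.0108, adjusted p = 0.0649). In the 6 dorsal Pdx1-low sets the G2M-high cells numbered 0 of 6, 0 of 3, 1 of 4, 3 of 4, 0 of 5 and 2 of 18. Set 4, with 3 of 4, set the spread, and without it the difference of the G2M-high share was 64.8 points (adjusted p = 0.0476 by the exact permutation test). The call between the sides on the share high in at least 1 list held without set 4 (adjusted p = 0.0476) and was lost without any one of the other 10 sets (adjusted p 0.0595 to 0.143, exact permutation tests). That between the dorsal gates likewise held without set 4 alone (adjusted p = 0.0476) and was lost without any one of the other 10 sets (adjusted p 0.0595 to 0.114, exact permutation tests). Leaving out a set also raises the smallest possible p of the exact permutation test, to 0.00794 with 5 against 5 sets. Through these fits the difference stayed at 45.8 to 60.8 points between the sides and at -60.8 to -45.8 points between the gates. A call lost in this way does not by itself show that the difference rested on the set left out. The call between the sides on the share high in at least 1 list was also lost under other settings. With only 7 of the 20 S genes or 8 of the 23 G2M genes required the difference was 8.89 points (adjusted p = 0.909 by the exact permutation test). With sets of 5 or more cells it was 59.6 points (adjusted p = 0.286 by the exact permutation test). Fewer sets remained there, so the smallest possible p was higher, and that loss does not show a smaller difference. The other 8 comparisons of sorts gave adjusted p-values of 0.857 to 1 for all 3 shares by the same exact permutation test. Most of them had too few sets to pass whatever the shares. The smallest possible p was 0.1 between the sides of E10.5 Pdx1+ cells and between the stages on either side. It was 0.333 between the sides at E9.5, between Liv2+ and Liv2- cells and between liver bud and Liv2+ cells.

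Gene by gene the summed sets showed the same sort apart. Ventral Pdx1-low cells held more of 21 G2M genes and 16 S genes than dorsal Pdx1-low cells and less of none (13.9% and 11% of all genes were called higher and lower), with medians of 3.68 and 2.33. Dorsal Pdx1-low cells held less of 19 G2M genes and 14 S genes than dorsal Pdx1-high cells and more of none (12.9% and 11% of all genes were called lower and higher), with medians of -2.99 and -2.12. The 2 comparisons share the dorsal Pdx1-low sets.

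Top2a had 319, 565, 880.5, 940.5 and 743 CPM in the 5 ventral Pdx1-low sets, and in the 6 dorsal Pdx1-low sets lowest 0.928, median 14.48 and highest 92.3 CPM, a log2 change of 4.73 (SE 0.74, adjusted p = 2.13e-05). The 5 dorsal Pdx1-high sets held 364, 348, 61.5, 866 and 456 CPM of Top2a, and the change of dorsal Pdx1-low against Pdx1-high was -4.01 (SE 0.72, adjusted p = 0.000154). Every dorsal Pdx1-low set lay below every ventral Pdx1-low set, but its highest set overlapped the lowest dorsal Pdx1-high set. Mki67 had 119.5, 71.8, 199, 274 and 181 CPM in ventral Pdx1-low, lowest 0, median 5.07 and highest 109 CPM in dorsal Pdx1-low and 98.4, 92.0, 27.2, 210.0 and 105 CPM in dorsal Pdx1-high sets. The highest dorsal Pdx1-low set of Mki67 overlapped both other sorts, and the changes were 2.92 (SE 0.83, adjusted p = 0.00992) for ventral against dorsal Pdx1-low and -2.25 (SE 0.81, adjusted p = 0.0422) for dorsal Pdx1-low against Pdx1-high. Between the dorsal gates the call of Mki67 was lost without any one of 9 of the 11 sets, with adjusted p-values from edgeR of 0.0549 to 0.111. Aurkb had 102, 128, 252, 123 and 220.5 CPM in ventral Pdx1-low and lowest 0, median 0.155 and highest 9.76 CPM in dorsal Pdx1-low sets (6.03, SE 0.82, adjusted p = 3.12e-06). Depdc1a was on in 22 of 39 ventral and 1 of 40 dorsal Pdx1-low cells and showed the largest change (6.39, SE 1.08, adjusted p = 5.9e-05). With most dorsal Pdx1-low sets at or near 0 CPM for Aurkb and Depdc1a, the size of these folds depends on the count added in the fit.

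Cdk1 had 139, 306, 426, 268 and 386 CPM in ventral Pdx1-low, lowest 0, median 7.27 and highest 73.3 CPM in dorsal Pdx1-low (4.18, SE 0.81, adjusted p = 0.000281) and 142, 202, 42.4, 269.9 and 195 CPM in dorsal Pdx1-high sets. Ccnb1 had 202, 216, 449, 391.6 and 432 CPM in ventral Pdx1-low and lowest 0, median 7.71 and highest 62.8 CPM in dorsal Pdx1-low sets (4.40, SE 0.93, adjusted p = 0.000773). In both genes the ventral and dorsal Pdx1-low sets did not overlap. Plk1 rose in ventral against dorsal Pdx1-low sets (3.54, SE 1.13, adjusted p = 0.0212) and its change of -2.95 in dorsal Pdx1-low against Pdx1-high sets missed the threshold (SE 1.11, adjusted p = 0.0511). Cdc20 missed it between the sides (2.12, SE 0.83, adjusted p = 0.0568) and passed it between the dorsal gates (-2.35, SE 0.83, adjusted p = 0.0378), a call lost without any one of 6 of the 11 sets (adjusted p-values from edgeR of 0.0704 to 0.227). Ccnb2 passed neither (1.29, SE 0.73, adjusted p = 0.196 between the sides).

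The replication genes did not reach 0 in dorsal Pdx1-low cells. Mcm6 was on in 34 of 40 of these cells, against 38 of 39 ventral Pdx1-low cells, while Mki67 was on in 10 of 40 against 29 of 39. By set, Mcm6 had 474, 575, 501, 409 and 469 CPM in ventral Pdx1-low, lowest 51.5, median 66.2 and highest 195 CPM in dorsal Pdx1-low (2.51, SE 0.32, adjusted p = 1.24e-06) and 763, 222, 242, 682 and 236 CPM in dorsal Pdx1-high sets (-2.34, SE 0.32, adjusted p = 4.5e-06), and the dorsal Pdx1-low sets overlapped neither. Mcm5 had 289.5, 285, 349, 322 and 349 CPM in ventral Pdx1-low and lowest 0.309, median 29.1 and highest 159.6 CPM in dorsal Pdx1-low sets (2.84, SE 0.56, adjusted p = 0.000353). Pcna had 123, 160.1, 190.1, 193 and 158 CPM in ventral Pdx1-low and lowest 13.1, median 27.7 and highest 76.5 CPM in dorsal Pdx1-low sets (2.32, SE 0.38, adjusted p = 3.84e-05). Rrm1 changed by 3.22 (SE 0.41, adjusted p = 1.18e-06) between the sides and Slbp, on in all 40 dorsal Pdx1-low cells, by 0.86 (SE 0.18, adjusted p = 0.000886). Ccne1 rose by 1.80 (SE 0.50, adjusted p = 0.00826) in ventral against dorsal sets, and Ccne2 (0.57, SE 0.73, adjusted p = 0.617), Cdc6 and Ung were not called. E2f1 was again the exception, on in 13 of 39 ventral and 20 of 40 dorsal Pdx1-low cells, with changes of -0.52 (SE 1.06, adjusted p = 0.773) between the sides and 1.08 (SE 1.08, adjusted p = 0.509) between the dorsal gates.

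The gate effect differed between the sides for 21 members, 11 G2M and 10 S genes, all with a more negative change on the dorsal side, where 6.19% of all genes were called in that direction and 4.93% in the other. The difference was -5.85 for Aurkb (SE 1.05, adjusted p = 0.000629), -2.63 for Mcm6 (SE 0.45, adjusted p = 0.000422) and -4.06 for Top2a (SE 0.98, adjusted p = 0.0071), and Mki67 missed the threshold (-2.52, SE 1.15, adjusted p = 0.161). Of the 21, 13 held whichever set was left out, among them Aurkb, Mcm6, Pcna and Top2a. The count was 39 without dorsal Pdx1-low set 4 and also 39 with sets of 5 or more cells.

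Cdkn1a marked the same sort. It was on in 40 of 40 dorsal Pdx1-low cells at a median of 208 CPM, against 19 of 39 ventral Pdx1-low cells at 9.19 CPM and 20 of 28 dorsal Pdx1-high cells at 39.0 CPM. Between ventral and dorsal Pdx1-low sets the change was -3.78 (SE 0.94, adjusted p = 0.00368), and Cdkn1b and Cdkn2d were lower too (-0.99 and -1.74), which made 3 of the 6 inhibitors tested. Cdkn1a was also on in 44 of 44 ventral and 31 of 31 dorsal E9.5 cells, at medians of 141 and 103 CPM, of which 35 and 20 were G2M-high. In ventral E9.5 cells its median was 118 CPM in G2M-high and 252 CPM in the other cells, and in dorsal E9.5 cells 114 and 98.1 CPM. In ventral E9.5 set 1, 27 of 28 cells were G2M-high, against 8 of 16 in set 2, so that contrast is also one of sets. In ventral E10.5 Pdx1+ cells its median was 22.6 CPM in G2M-high and 22.8 CPM in the other cells. In ventral Pdx1-low cells it was 8.33 and 14.8 CPM and in ventral Pdx1-high cells 0 and 33.8 CPM. In dorsal E10.5 Pdx1+ cells it was 18.4 CPM in G2M-high and 75.1 CPM in the other cells, in dorsal Pdx1-high cells 27.8 and 58.8 CPM, in Liv2+ cells 10.8 and 41.8 CPM and in Liv2- cells 19.3 and 47.3 CPM. In dorsal Pdx1-low cells it was 284 CPM in the 6 G2M-high and 208 CPM in the other 34 cells. These medians are over cells of several sets and were not tested. Cdkn1c had its highest median over cells in the liver bud, at 532 CPM, where all 23 cells were G2M-high, while by sets its mean was 644 CPM there and 743 CPM in ventral E9.5 cells. Ccnd1 was higher in ventral than in dorsal Pdx1-low sets (3.74, SE 0.88, adjusted p = 0.00214) and Ccnd2 was not called (0.18, SE 0.34, adjusted p = 0.749). Of the other lists, 18 of 20 replication genes and 22 of 27 mitosis genes were higher in ventral Pdx1-low sets and none was called lower. Btg2 and Btg1, linked to cell cycle exit, were lower in ventral sets (-4.37 and -1.65).

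In the other comparisons of summed sets edgeR called 0 of 43 members. Between ventral and dorsal Pdx1-high cells 0.00574% of all genes were called and the medians were 0.53 (G2M) and 0.12 (S). Between ventral and dorsal E10.5 Pdx1+ cells 0.47% of all genes were called, with medians of 0.44 (G2M) and 0.47 (S), and between ventral and dorsal E9.5 cells 0%, with medians of 0.33 and -0.09. Between ventral Pdx1-low and Pdx1-high cells 0.952% of all genes were called and the medians were 0.16 (G2M) and 0.12 (S). Between Liv2+ and Liv2- cells 0% of all genes were called (0.56 and 0.23), and between liver bud and ventral Liv2+ cells 0.562% (-0.13 and 0.05), although the hepatoblast markers summed to 30982 to 42554 CPM in liver bud against 7546 to 9083 CPM in Liv2+ sets. Between E10.5 and E9.5 Pdx1+ cells 0% of all genes were called on the ventral side (-0.38 and -0.04) and 0.275% on the dorsal side (-0.52 and -0.54). In these 8 comparisons 2 members, Mcm6 and Slbp in the dorsal stage comparison, named here for their values, had an unadjusted p under 0.05, and DESeq2 called 0. With 2 or 3 sets in several groups these comparisons had wide errors, for example an SE of 1.30 on the log2 scale for Mki67 between the sides at E9.5.

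The 4 tdTomato+ E15.5 liver cells are given as values, since they form 1 set. Cell 1 had 18 S and 18 G2M genes on and 210 CPM of Mki67, cell 2 had 3 and 0 on and 0 CPM, cell 3 had 0 and 4 on and 66.7 CPM, and cell 4 had 7 and 15 on and 15.8 CPM. Thus 1 cell was S-high and 2 were G2M-high.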

How the data were processed

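Libraries and cells were grouped by GEO's labels. The authors deposited raw read counts per gene with gene lengths, for 16 bulk libraries and 447 Smart-seq2 cells. TopHat2 2.1.0, Bowtie2, HTSeq 0.6.0 and build GRCm38 are named, per the submitters' processing notes, and whether counting used strand is not given in the sources used here. From the counts, 92 spike-ins were left out and CPM and RPKM were computed. Cells were summed per numbered set of at least 3 cells (37 sets in 11 groups), since cells are not replicates. edgeR 4.0.16 (R 4.3.3, TMM scaling, filterByExpr, quasi-likelihood F test) was fitted once over all bulk groups and once over all sets, and p-values were adjusted by Benjamini-Hochberg over all genes tested. The SE of a log2 fold change is its size over the square root of F. Fits were tested on simulated counts. Shares were compared by exact two-sided permutation of set means (scipy 1.17.1), adjusted over 30 tests. Alternatives were DESeq2 1.42.0 (with its size factors), RLE scaling, no filter, a replicate block, sets of 5 or more cells, other cuts, thinning, each replicate left out and, added after seeing the data, a robust estimate of spread. All 43 members may be named. Values in every library or set are given for 12 fixed members and for the members of largest change, smallest change or highest mean CPM, and from other lists for CDK inhibitors and the genes of smallest p. Members and lists were chosen with earlier results of these data known. No doublet caller was run.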

Additional observations from a re-analysis of the deposited data

Results flagged for a closer look

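In 54 groups of 4 to 10 sets, the highest or lowest set was compared with its neighbours, and chance alone puts about 1 in 20 such groups past the limit used. The groups take the same sorts again for related genes, so they are not independent of each other. In dorsal Pdx1-low cells set 4 stood far above the other 5 sets for Mki67 (108.9 CPM), Top2a (92.33 CPM), Cdk1 (73.33 CPM), Ccnb1 (62.78 CPM), Cdc20 (205.5 CPM), Plk1 (99.45 CPM), Mcm5 (159.6 CPM), Pcna (76.5 CPM) and Ccne2 (106 CPM). The G2M-high share was likewise far above the others in set 4, at 75% (3 of 4 cells). All these set 4 values come from the same 4 cells. In ventral Pdx1-high cells 1 set stood apart for Mki67 (268.7 CPM) and 1 for Ccne2 (109.6 CPM), and in dorsal Pdx1-high cells 1 set stood apart for Cdc20 (701.6 CPM).

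The side effect at E10.5 differed from that in Ngn3-low cells at E14.5 by edgeR's test of the difference for 13 members, among them Plk1 (0.4525 on the log2 scale) and Mki67 (0.4846). The gate effect differed between the dorsal and the ventral side of E10.5 for 21 members, among them Mcm5 (-2.6764), Cdk1 (-3.2653), Top2a (-4.0643), Pcna (-2.161) and Ccnb1 (-3.7895). Both comparisons share libraries or sets with those of the report.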

How the results depend on the processing

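Of the 126 counts of members called under another setting, 123 lay within 1.5 times the main count. The exceptions were Ngn3-high cells between the sides (0 called, against 1 without the filter and 1 by DESeq2) and the difference of the gate effect between the sides of E10.5 (21, against 39 with sets of 5 or more cells). No alternative turned the direction of a value that passed the test in either fit. Of the values that passed in neither, 19 of 321 share differences and 198 of 2200 log2 fold changes of 12 named members changed sign. Among these shares, that of G2M-high cells between the sides was 10.6 points in Pdx1-high sets (-13.3 with sets of 5 or more cells) and 6.25 points at E9.5 (-0.893 with on set at 5 CPM, and -17 without ventral set 1, which holds the 25 cells with the human stem cell protocol). Between ventral Pdx1-low and Pdx1-high sets it was -3.58 points (1.94 with sets of 5 or more cells), and between E10.5 and E9.5 ventral cells 6.58 points (-0.974 to -3.52 under 4 settings). The other 12 changed sign when a set was left out, and without dorsal E10.5 Pdx1+ set 3 the share high in at least 1 list between the sides was -1.01, against 15.7 points. The share high in at least 1 list and the S-high share, each 54.8 points between the sides in Pdx1-low sets, lost their call with 7 S or 8 G2M genes required (8.89 points), with 14 S or 16 G2M genes required (81.5 and 85.6 points) and with sets of 5 or more cells (59.6 points). Between dorsal Pdx1-low and Pdx1-high sets, where each was -54.8 points, they lost it under the same settings at -8.89, at -59.8 and -64, and at -59.6 points. Fewer sets remained at 5 or more cells, so the smallest possible p was higher, and those losses do not show a smaller difference. With on set at 5 CPM (36.7 and -36.7 points), at 20 CPM (73.9 and -68.9 points) or with cells thinned (45 and -45 points) the calls held. The cause was not tested. RLE scaling moved the median of all genes between the sides in Pdx1-low sets to -0.11 on the log2 scale, and the members stayed on their side of it.

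Leaving out 1 library or set at a time, the members called numbered 8 to 21 for the sides at E10.5, 42 to 42 (dorsal) and 42 to 43 (ventral) for the Ngn3 gate, 33 to 35 and 36 to 38 for E17.5 against Ngn3-high, 22 to 26 and 15 to 19 for Ngn3-low against E10.5, and 2 to 11 for the difference of the side effect. In summed sets they numbered 33 to 41 for the sides in Pdx1-low cells, 29 to 40 for the dorsal gate and 15 to 39 for the difference of the gate effect, and 0 in every other comparison. The shares high in at least 1 list and S-high ranged from 45.8 to 60.8 points between the sides in Pdx1-low sets and from -60.8 to -45.8 between the dorsal gates, and the G2M-high share from 49.8 to 64.8 and from -57.8 to -37.7. Same-numbered ventral and dorsal bulk libraries deviated together (correlations of 0.286 at E10.5, 0.369 in Ngn3-high, 0.472 in Ngn3-low and 0.769 in E17.5 cells, each the same for both numbers since there are 2 libraries a side). Over the other bulk comparisons the correlation was -0.005 to 0.278 and over sets -0.11 to 0.379, and no label says what a number marks. With the replicate number as a block, 29 members were called between the sides at E10.5, 0 between the sides in Ngn3-high, Ngn3-low and E17.5 cells, 39 between the sides in Pdx1-low sets, 34 between the dorsal gates and 27 for the difference of the gate effect. Each number had 1 effect shared by all groups of a fit, so this block does not model a pairing particular to 1 stage or sort. Depth limits genes at a few counts per set, such as Depdc1a and Aurkb in dorsal Pdx1-low cells, where a fold is no more than a direction.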

Other observations

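Within sorts, cells rich in S transcripts were not always rich in G2M transcripts. The rank correlation of the summed S and the summed G2M level over cells was -0.616 in Liv2+ cells (54 cells) and -0.573 in liver bud cells (23 cells), and 0.48 in dorsal Pdx1-low (40 cells) and 0.485 in dorsal E10.5 Pdx1+ cells (27 cells). These are the extremes among the sorts of E9.5 and E10.5. In the other sorts of these stages it was weaker, from -0.301 to -0.049, and over all 447 cells it was 0.096. Cells of a sort share sets, and both sums share a cell's depth, so these values describe the cells and were not tested.

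In dorsal E10.5 Pdx1+ cells the median level of Gcg, which codes for glucagon, went with the set, although set 1 also held cells rich in it. In set 3, with 1 of 6 cells G2M-high, that cell had 44860 CPM and the other 5 had a median of 27659 CPM. In set 1 the median was 8.94 CPM in the 6 G2M-high cells (highest 67575 CPM) and 9.2 CPM in the other 5 (highest 24693 CPM). In set 2 it was 7.39 CPM in the 8 G2M-high cells and 8.77 CPM in the other 2. In dorsal Pdx1-low cells, pooled over 6 sets, it was 35497 CPM in the 6 G2M-high cells and 39455 CPM in the other 34. Ccne1 was on in 23 of 23 liver bud cells, and the 2 liver bud sets held 334 and 452 CPM, against 159 and 201 CPM in the 2 Liv2+ sets, a change of 1.13 on the log2 scale that did not pass edgeR's test (adjusted p = 0.855).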
